A study of Arabidopsis thaliana with 14 samples.

Results

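The cytochrome P450 genes read by the array in Arabidopsis thaliana roots were described across 7 genotypes and 2 boron levels. Members were all probe sets annotated with a single gene whose symbol has the P450 form, that is CYP followed by a family number, capital letters and a gene number. This gave 22 genes among the 13513 probe sets that name a single gene, of 22746 probe sets without the array's control sets. Of these, 18 belong to the CYP71B subfamily, and the other 4 are CYP51G2, CYP78A9, CYP79A2 and CYP84A4. The 22 genes are a part of the superfamily, since RefSeq's gene table (assembly TAIR10.1) holds 225 symbols of this form, 35 of them CYP71B. The annotation given here lists no gene for 8730 probe sets and several genes for 503, and P450 genes among those are not analysed here.

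Cytochromes P450 are haem enzymes, most of them anchored in the endoplasmic reticulum, that insert an oxygen atom into their substrate with electrons passed on from NADPH by a reductase. In plants they make and break down hormones, sterols, phenylpropanoids, glucosinolates and other defence compounds, and many subfamilies lie on the chromosomes as tandem copies. CYP71B is a large subfamily of Arabidopsis, best known for the camalexin enzyme CYP71B15, which is no member here. For most of its members no substrate is given below.

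Roots of 12-day-old Col-0 plants were profiled on the Affymetrix ATH1 array, after 10 days with 100 µM boron and a further 2 days at either 0.3 or 100 µM. The 14 arrays held wild type, the single mutants bor1, bor2 and nip5;1, and double mutants in which nip5;1 was joined with bor1, bor2 or nip6;1. NIP5;1 is a boric acid channel for boron uptake by roots, BOR1 and BOR2 are boron exporters, and NIP6;1 is a related channel. Wild type, bor1 and bor2 are called the intact class (3 genotypes), and the 4 genotypes that carry nip5;1 are called the channel mutants. All mutants were in Col-0 and all plants shared the first 10 days at 100 µM boron. The labels name the alleles bor1-1, bor2-1 and nip5;1-1 in their phenotype notes, and describe the single mutants as growing poorly on little boron and the double mutants as similar to nip5;1-1.

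Each genotype had 1 array per boron level, so each p-value measures the spread between genotypes, not between repeat cultures of 1 genotype. How many plants went into an array is not stated in the labels. The genes mutated in these lines are outside the P450 genes described here, and the genotypes were not checked by their target. The tissue was labelled as root, and the root hair genes EXPA7 and EXPA18 read 862 to 1390.6 and 922.6 to 1647.6 signal units over the arrays. The shoot marker list was represented by 2 of its 12 genes, LHCB4.1 and RCA, whose summed signal was 939.4 to 2680.5 signal units at 0.3 µM and 1294 to 2283.2 at 100 µM. The bor2 array at 0.3 µM had the highest sum and the lowest median rank correlation with the other arrays, 0.9746, and the CYP71B6 and CYP71B26 values that rest on it are also given with bor2 left out. The ratio of 3′ to 5′ signal of the GAPDH control, a measure of RNA quality, was 1.68 ± 0.167 (SD, n = 7) at 0.3 µM and 1.44 ± 0.201 (SD, n = 7) at 100 µM. In whole roots, fewer cells of a type and less RNA per cell cannot be told apart.

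A probe set was tested where its mean signal over the 14 arrays lay in the upper 60% of all probe sets, a bound of 113 signal units. Of the 22 P450 genes, 8 passed and 14 were dim (63.6%, where 39.998% of all probe sets were dim). The tested genes were CYP71B6, CYP71B23, CYP71B26, CYP71B28, CYP71B29, CYP71B34, CYP71B37 and CYP84A4. Just above the bound lay CYP71B29 with a mean of 146 signal units, CYP71B28 with 185 and CYP84A4 with 224. Just below it lay CYP51G2 with 77.6, CYP78A9 with 56.2 and CYP71B38 with 26.8. The remaining 11 dim genes had mean signals below 20 signal units, the floor applied before log2 values were taken. Signals of different probe sets are not levels on a shared scale, and no order of transcript abundance between genes is drawn from them.

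**Figure D1:**
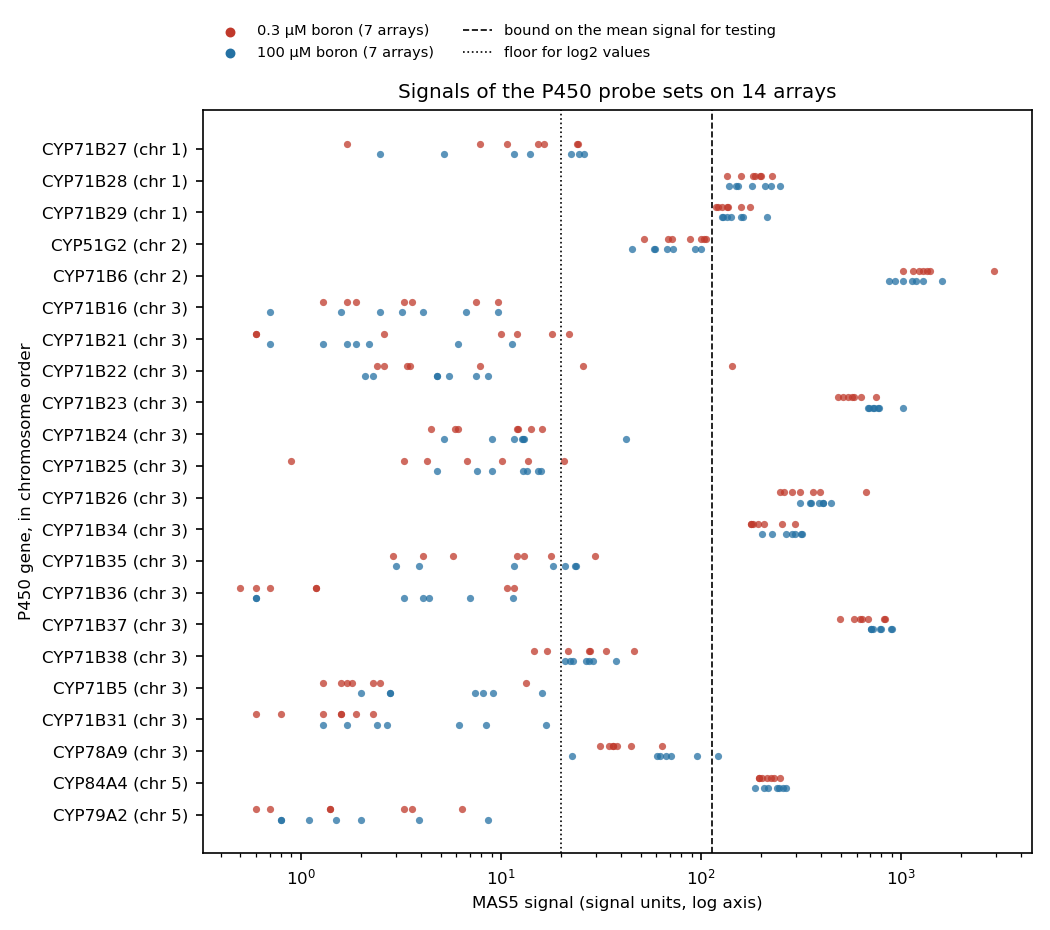
MAS5 signal (horizontal log axis, signal units) of each of the 22 P450 genes on the 7 arrays at 0.3 µM boron (red points) and the 7 at 100 µM (blue points), in chromosome order. The dashed line is the bound of 113 on the mean signal for testing and the dotted line the floor of 20. Of the genes, 14 have means left of the dashed line, and CYP71B22 has a single point far to the right of its others, at 143.7.

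Most of the CYP71B genes lay in rows on chromosomes 1 and 3, and dim and tested genes were neighbours there. On chromosome 3, 11 members stood in the order CYP71B16, CYP71B21, CYP71B22, CYP71B23, CYP71B24, CYP71B25, CYP71B26, CYP71B34, CYP71B35, CYP71B36 and CYP71B37. Between CYP71B16 and CYP71B21 the gene table places CYP71B17, CYP71B19 and CYP71B20, which are no members. CYP71B3 and CYP71B4 lie further along the same row, and so do 4 genes of other names between CYP71B24 and CYP71B25. Of the 11, CYP71B23, CYP71B26, CYP71B34 and CYP71B37 were tested, and the other 7 were dim. CYP71B22, for example, lies directly beside CYP71B23 with no protein-coding gene between them, and was under the floor on 12 of 14 arrays. CYP71B36 is the direct neighbour of CYP71B37 and was under the floor on all 14 arrays. Outside this row, CYP71B38 lies further along chromosome 3, and so do CYP71B5 and CYP71B31, which are close to each other. All of these were dim. On chromosome 1, CYP71B28 and CYP71B29 were direct neighbours and both were tested, while CYP71B27, annotated as a transcribed pseudogene, was dim. CYP71B6 lies apart from both rows, on chromosome 2, and CYP84A4 lies on chromosome 5. Cross-hybridisation between such close copies was not tested.

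The first question was how P450 transcripts responded to low boron over all 7 genotypes. CYP71B23 fell at low boron, by 0.41 on the log2 scale, and no other P450 gene passed the test. The difference between 0.3 and 100 µM was below zero for 7 of the 8 tested genes, with CYP71B6 above zero. Their median was -0.14 on the log2 scale, and that of all 13648 tested probe sets was -0.00, with 51.1% below zero. In limma with each genotype as a block, 1 of 8 genes was called at an adjusted p of at most 0.05, and 2 had an unadjusted p of at most 0.05. Over all tested probe sets 3.77% were called, 1.82% were called and lower at 0.3 µM, and 19.9% had such an unadjusted p.

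At 0.3 µM, the CYP71B23 signal was 634.2 in wild type, 586.1 in bor1 and 748.8 in bor2. In the channel mutants at 0.3 µM it was 570 in the nip5;1 single mutant, and 515.5, 545.5 and 482.7 in the double mutants with bor1, bor2 and nip6;1. At 100 µM it was 737.7, 1025.1 and 728.4 in wild type, bor1 and bor2, and 764.7, 779, 690 and 683.3 in the channel mutants in the same order. CYP71B23 was therefore lower at 0.3 µM in 6 of 7 genotypes, with bor2 the exception. The arrays of the boron levels overlapped, since bor2 at 0.3 µM, with 748.8, lay above the lowest at 100 µM, 683.3. None of the 8 genes had all 7 arrays at 0.3 µM below all 7 at 100 µM, a pattern of 0.425% of all tested probe sets. The fitted difference was -0.41 ± 0.09 (log2, SE), a 1.33-fold lower signal at low boron, with a limma adjusted p of 0.0372.

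The CYP71B23 call depended on single genotypes. Left out in turn, the other genotypes gave differences from -0.48 to -0.34. The adjusted p was 0.0123 without bor2 and 0.0432 without wild type. It was 0.0794 without bor1, 0.104 without the nip5;1 single mutant, and 0.0979, 0.0855 and 0.0951 without the double mutants with bor1, bor2 and nip6;1, so the call was lost in those 5. The GAPDH ratio differed between the boron levels, and with it as a covariate the difference was -0.43 with an adjusted p of 0.286. Its adjusted p was 0.141 when dim probe sets were kept in the fit, and 0.0504 with no intensity trend in the variance prior.

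The other P450 genes did not pass the test of the average response. CYP71B34 differed by -0.37 ± 0.14 (adjusted p = 0.165 in limma) and CYP71B37 by -0.25 ± 0.12 (0.261). CYP71B6, which converts indole-3-acetonitrile in the formation of indole carboxylic acids, differed by 0.31 ± 0.17 (0.334). CYP84A4, an enzyme of arabidopyrone synthesis from phenylpropanoids, differed by -0.10 ± 0.09 (0.598). The values were -0.15 ± 0.15 for CYP71B26 (0.620), -0.12 ± 0.12 for CYP71B29 (0.614) and -0.00 ± 0.11 for CYP71B28 (0.986). None of the 8 was lower at 0.3 µM in all 7 genotypes, a pattern that 4.13% of all tested probe sets showed.

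**Figure D2:**
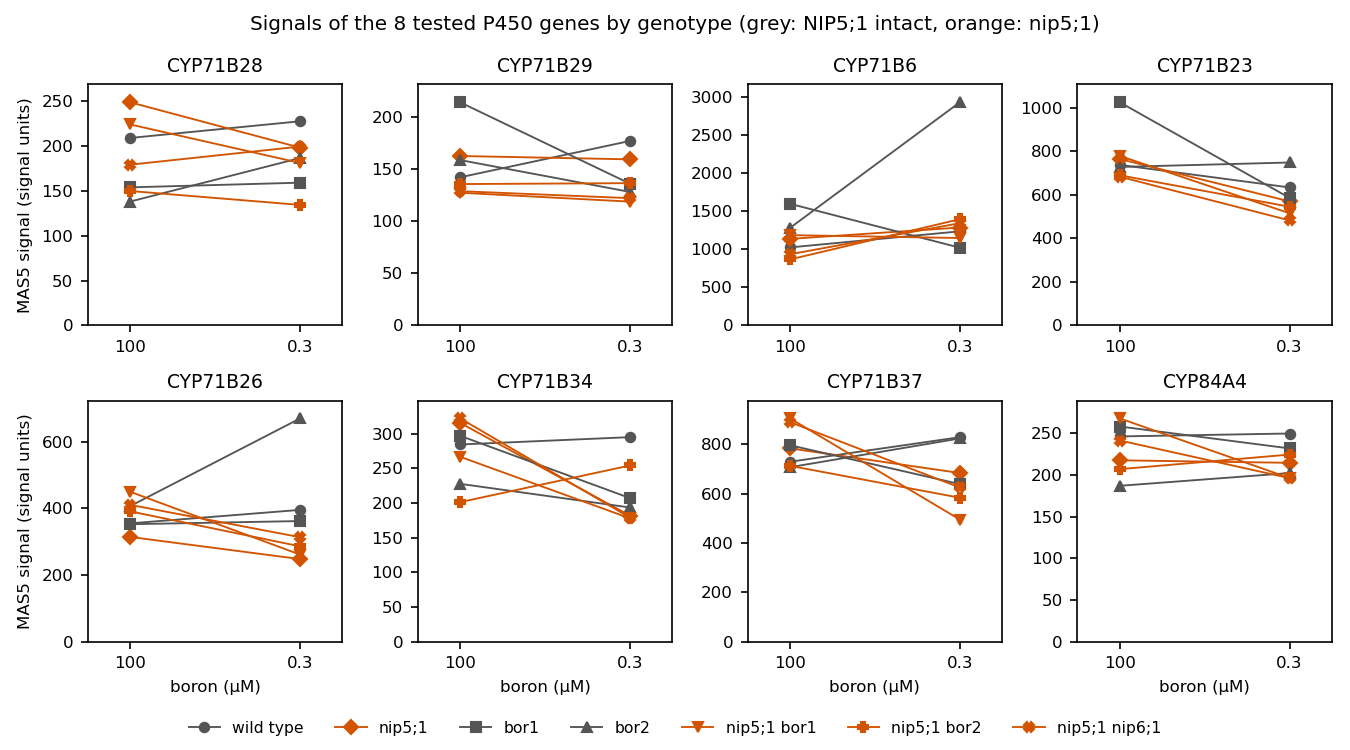
MAS5 signal (vertical axes from 0, signal units) of the 8 tested P450 genes at 100 and 0.3 µM boron, with 1 line and symbol per genotype, grey for the 3 intact genotypes and orange for the 4 channel mutants. The orange CYP71B23, CYP71B26 and CYP71B37 lines all run downwards to 0.3 µM, and the highest points of CYP71B6 (2930.2) and CYP71B26 (669.8) belong to bor2 at 0.3 µM.

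The response was then taken within each class. In the channel mutants CYP71B26 fell at low boron, by 0.49 on the log2 scale, and it was the one P450 gene of 8 past an adjusted p of 0.05. The median difference of the 8 genes was -0.31 there, with 7 of 8 below zero, against a median of 0.00 over all tested probe sets. Unadjusted p-values of at most 0.05 were reached by 4 genes, which were CYP71B23, CYP71B26, CYP71B34 and CYP71B37, all of the chromosome 3 row. Over all tested probe sets 5.17% were called in this comparison, 2.32% were called and lower, and 19.2% had such an unadjusted p. Of the tissue markers, LHCB4.1 was lower at 0.3 µM in all 4 channel mutants, by 0.46 ± 0.16 on the log2 scale (adjusted p = 0.131 in limma), and RCA differed by -0.16 ± 0.23 (0.778). The summed signal of these shoot markers was 939.4 to 1931.5 at 0.3 µM and 1294 to 2283.2 at 100 µM in this class. The root hair markers EXPA18 and EXPA7 differed by 0.35 ± 0.12 (0.153) and 0.17 ± 0.11 (0.420). The part of these tissues in the P450 differences was not tested.

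The signals of CYP71B26 at 0.3 µM in the channel mutants were 247.6 in the nip5;1 single mutant, and 261.1, 285.9 and 313.3 in the double mutants with bor1, bor2 and nip6;1. At 100 µM the same genotypes had 314, 449.5, 390.8 and 410.3. All 4 arrays at 0.3 µM thus lay below all 4 at 100 µM, though 313.3 and 314 nearly touched. The mean was 277 ± 28.9 (SD, n = 4) at 0.3 µM and 391 ± 56.9 at 100 µM. The fitted difference was -0.49 ± 0.13 (log2, SE), a 1.41-fold lower signal, with an adjusted p of 0.0473 in limma.

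This call too rested on single genotypes. It held without bor1 (adjusted p = 0.0472) and without bor2 (0.0178). It was lost without wild type (0.0687), the nip5;1 single mutant (0.104), and the double mutants with bor1 (0.217), bor2 (0.0825) and nip6;1 (0.132), with differences from -0.54 to -0.39 over all 7 omissions. Without bor1 or without bor2, CYP71B23, CYP71B26 and CYP71B37 were all called, so that the count was 3, where 4.84% and 6.92% of all tested probe sets were called. For CYP71B23 the adjusted p was then 0.0180 and 0.0255, and for CYP71B37 0.0478 and 0.0486. Since neither genotype carries nip5;1, these omissions left the differences themselves unchanged at -0.47 for both genes. The CYP71B26 call was also lost with no filter (0.178), with a filter at the upper 40% (0.0582), with no intensity trend (0.0596) and with a GAPDH ratio term, where the difference was -0.64 (0.0690).

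CYP71B23 and CYP71B37 had values close to that of CYP71B26 in the channel mutants without passing the test. CYP71B23 differed by -0.47 ± 0.12 (adjusted p = 0.0568 in limma), with signals of 482.7 to 570 at 0.3 µM and 683.3 to 779 at 100 µM. CYP71B37 had 683.8, 495.1, 583.5 and 625 at 0.3 µM in the nip5;1 single mutant and the double mutants with bor1, bor2 and nip6;1. At 100 µM it had 783.6, 905.1, 712.9 and 890.1 in the same order. Its 2 groups did not overlap, and the difference was -0.47 ± 0.13 (adjusted p = 0.0619). Arrays at 0.3 µM all below those at 100 µM in the channel mutants were seen for 3 of the 8 P450 genes, CYP71B23, CYP71B26 and CYP71B37, and for 5.48% of all tested probe sets. The same 3 genes were lower at 0.3 µM in each of the 4 channel mutants, a pattern of 13% of all tested probe sets.

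CYP71B34 followed in 3 of the 4 channel mutants. Its signal at 0.3 µM was 181.8 in the nip5;1 single mutant, 177.9 with bor1 and 179 with nip6;1, but 254.1 with bor2. At 100 µM it was 315.5, 266.6 and 322 in the first 3, and 201.2 with bor2. The double mutant with bor2 thus ran the other way, with a response of 0.34 where the others had -0.85 to -0.58. The fitted difference was -0.47 ± 0.18 (adjusted p = 0.186 in limma). Without the double mutant with bor2 it was -0.74 (adjusted p = 0.0129), the one omission under which CYP71B34 was called. Over all tested probe sets 5.28% were called with that genotype left out.

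CYP71B28, CYP71B29, CYP71B6 and CYP84A4 showed smaller or less even differences in the channel mutants. CYP71B28 differed by -0.16 ± 0.13 and CYP71B29 by -0.05 ± 0.16, with adjusted p-values of 0.555 and 0.908 in limma. CYP84A4 differed by -0.16 ± 0.12 (0.519). CYP71B6 differed by 0.33 ± 0.23 (0.474) and ran upwards in 3 of the 4, with responses of 0.18 in the nip5;1 single mutant, -0.05 with bor1, 0.69 with bor2 and 0.52 with nip6;1.

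In the intact class no P450 gene passed the test. Of the 8 genes, 4 were above and 4 below zero, with a median of 0.01, and 1 had an unadjusted p of at most 0.05. The background was 0.132% of all tested probe sets called and 8.41% with such an unadjusted p. The gene with the unadjusted p was CYP71B23, at -0.33 ± 0.14 (adjusted p = 0.584 in limma), and without bor1 its difference was -0.089 (0.856). CYP71B26 differed by 0.30 ± 0.14 (0.608), and without bor2 by 0.097 (0.986). CYP71B28 differed by 0.20 ± 0.15 (0.773), CYP71B6 by 0.27 ± 0.26 (0.847) and CYP71B37 by 0.03 ± 0.15 (0.977). CYP71B34 differed by -0.23 ± 0.21 (0.837), CYP71B29 by -0.22 ± 0.18 (0.816) and CYP84A4 by -0.01 ± 0.14 (0.992).

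Single genotypes of the intact class differed widely among themselves. The median response of the 8 genes was 0.14 in wild type, with 1 of 8 below zero, and 0.17 in bor2, with 2 of 8 below zero. In bor1 it was -0.42, with 6 of 8 below zero. In the channel mutants it was -0.26 in the nip5;1 single mutant (7 of 8 below zero), and -0.52 (8 of 8), -0.07 (4 of 8) and -0.34 (6 of 8) in the double mutants with bor1, bor2 and nip6;1. Over all tested probe sets the median response lay between -0.04 and 0.02 in every genotype.

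**Figure D3:**
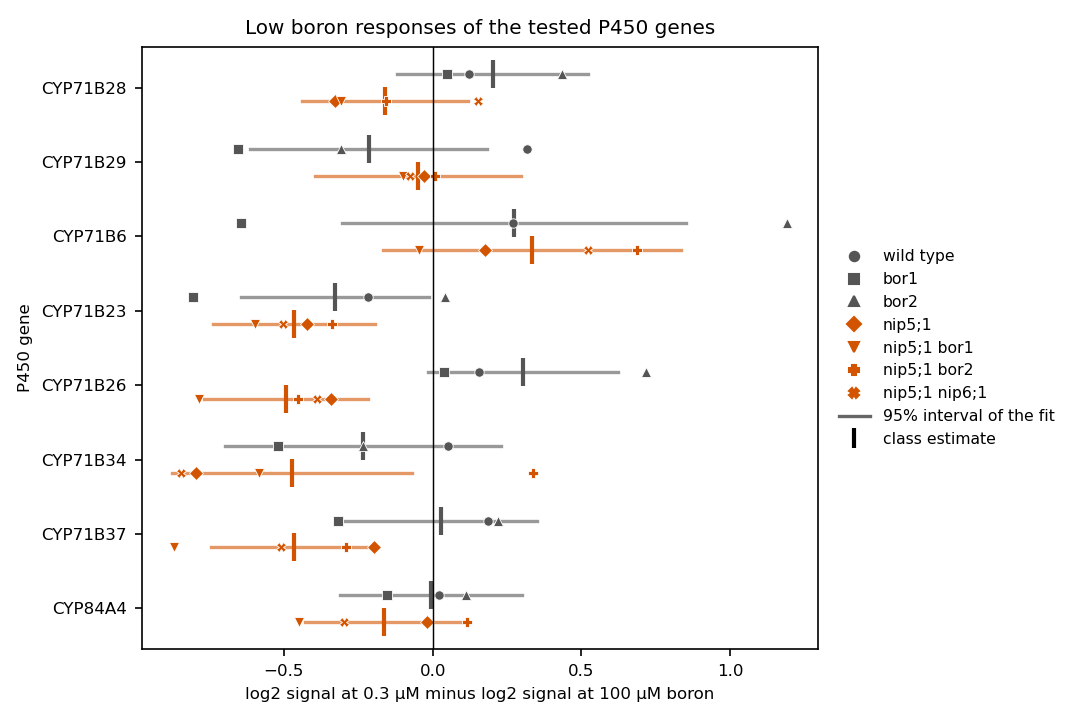
Response to low boron (horizontal axis, log2 signal at 0.3 µM minus log2 signal at 100 µM) of the 8 tested P450 genes, with 1 symbol per genotype, a vertical tick for each class estimate and a bar for its 95% interval (grey for the intact class, orange for the channel mutants). The CYP71B26 estimates lie on opposite sides of zero, 0.30 in the intact class (0.097 without bor2) and -0.49 in the channel mutants.

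Whether the response itself differed between the classes was tested as an interaction. No P450 gene passed, and the background was 0.11% of all tested probe sets called. An unadjusted p of at most 0.05 was reached by 2 of the 8 genes, CYP71B26 and CYP71B37, and by 7.51% of all tested probe sets. The response of CYP71B26 was lower in the channel mutants than in the intact class by 0.80 ± 0.19 on the log2 scale (adjusted p = 0.206 in limma). CYP71B26 was higher at 0.3 µM in all 3 intact genotypes, with responses of 0.16 in wild type, 0.04 in bor1 and 0.72 in bor2. It was lower in all 4 channel mutants, from -0.78 to -0.34. Without bor2 the class difference of the responses was -0.59 (adjusted p = 0.358), and it ranged from -0.93 to -0.59 over the 7 omissions.

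For CYP71B37 the interaction was -0.50 ± 0.19 (adjusted p = 0.546 in limma), and for CYP71B28 it was -0.36 ± 0.19 (0.747). It was -0.24 ± 0.28 for CYP71B34 (0.940), -0.16 ± 0.18 for CYP84A4 (0.942) and -0.14 ± 0.19 for CYP71B23 (0.957). It was above zero for CYP71B29 (0.17 ± 0.24, 0.961) and CYP71B6 (0.06 ± 0.35, 0.991). CYP71B28 was, with CYP71B26, 1 of 2 P450 genes that were higher at 0.3 µM in all 3 intact genotypes, as were 13.1% of all tested probe sets.

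The next comparison set the channel mutants against the intact class within each boron level, with a random block for genotype. At 0.3 µM all 8 genes had lower signals in the channel mutants, with a median of -0.24 on the log2 scale, against 0.03 over all tested probe sets, of which 43.0% were below zero. No P450 gene passed an adjusted p of 0.05, and 3 had an unadjusted p of at most 0.05, CYP71B23, CYP71B26 and CYP71B37. The background was 0.989% called and 11.7% with such an unadjusted p.

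CYP71B26 showed the largest of these differences among the 8 genes. At 0.3 µM its signal was 395.3 in wild type, 361.8 in bor1 and 669.8 in bor2, all above the highest channel mutant, 313.3. The difference was -0.73 ± 0.18 (log2, SE; adjusted p = 0.0689 in limma). Without bor2 it was -0.46 (adjusted p = 0.151). CYP71B37 differed by -0.36 ± 0.13 (0.279) and CYP71B23 by -0.31 ± 0.13 (0.351). The channel mutants lay below all intact arrays at 0.3 µM for CYP71B23 and CYP71B26, and for 3.91% of all tested probe sets. For CYP71B6 the difference was -0.26 ± 0.27 (0.754), and without bor2 it was 0.20 (0.662), so that its sign rested on the bor2 array. CYP71B34 differed by -0.22 ± 0.20 (0.718) and CYP84A4 by -0.13 ± 0.13 (0.755). CYP71B29 differed by -0.13 ± 0.17 (0.820) and CYP71B28 by -0.10 ± 0.20 (0.875).

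At 100 µM no P450 gene passed the test, and none had an unadjusted p of at most 0.05 in limma. Over all tested probe sets 0% were called and 2.83% had such an unadjusted p. The median of the 8 genes was 0.02 and 3 were below zero. CYP71B26 had 354.9, 352.3 and 407 in wild type, bor1 and bor2, and 314 to 449.5 in the channel mutants, so the classes overlapped. Its difference was 0.07 ± 0.18, with a 95% interval from -0.31 to 0.44. The lowest value was that of CYP71B6, -0.32 ± 0.27, and the highest that of CYP71B28, 0.26 ± 0.20, each with an adjusted p of 1.00. CYP71B29 differed by -0.29 ± 0.17, CYP71B23 by -0.17 ± 0.13 and CYP71B37 by 0.14 ± 0.13. The values were 0.03 ± 0.13 for CYP84A4 and 0.02 ± 0.20 for CYP71B34.

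The exporter mutations were tested as additive terms over both boron levels and both classes, with no block for genotype. Both arrays of a genotype thus counted as separate samples. No P450 gene passed for bor1, where 0% of all tested probe sets were called. An unadjusted p of at most 0.05 was reached by 1 of 8 genes and by 2.64% of all tested probe sets. That gene was CYP71B28, at -0.31 ± 0.14 (adjusted p = 1.00 in limma). CYP71B34 differed by -0.18 ± 0.18, CYP71B29 by -0.14 ± 0.16, CYP71B26 by 0.11 ± 0.14, CYP71B6 by 0.07 ± 0.25 and CYP71B23 by 0.06 ± 0.12. The bor1 array at 100 µM held the highest CYP71B23 signal of all, 1025.1, and the highest CYP71B29 signal, 213.8.

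For bor2 no P450 gene passed either, and 0.00733% of all tested probe sets were called. An unadjusted p of at most 0.05 was reached by 2 of the 8 genes, CYP71B28 and CYP71B26, and by 7.82% of all tested probe sets. CYP71B28 had 186.8 and 138.3 in bor2 at 0.3 and 100 µM, against 227.8 and 209.2 in wild type. In the double mutant with bor2 it had 134.5 and 150, against 198.4 and 248.9 in the nip5;1 single mutant. It was lower with bor2 in all 4 of these pairs, by 0.54 ± 0.14 on the log2 scale, with an adjusted p of 0.574 in limma. How many of all tested probe sets were lower in all 4 pairs was not counted. CYP71B26 differed by 0.37 ± 0.14 (0.584) and CYP71B6 by 0.32 ± 0.25 (0.781). CYP71B34 differed by -0.27 ± 0.18 (0.741) and CYP71B29 by -0.20 ± 0.16 (0.792). CYP71B23 differed by 0.00 ± 0.12 (0.997).

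The nip6;1 mutation was carried by 1 genotype, so its p holds no spread between carriers. No P450 gene passed for it and none had an unadjusted p of at most 0.05 in limma, where 0% of all tested probe sets were called and 4.92% had such an unadjusted p. CYP71B26 differed by 0.34 ± 0.19, CYP71B6 by 0.08 ± 0.33 and CYP71B37 by 0.05 ± 0.16. On the other side, CYP71B29 differed by -0.26 ± 0.21, CYP71B28 by -0.25 ± 0.18 and CYP71B23 by -0.13 ± 0.16. The adjusted p was 0.999 for each. Of the tissue markers, LHCB4.1 differed by 0.70 ± 0.24 and RCA by 0.87 ± 0.35. EXPA18 differed by -0.47 ± 0.18 and EXPA7 by -0.42 ± 0.17. None of these markers passed the test, and the part of their tissues in the P450 values was not tested.

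Signals on the bor2 array at 0.3 µM set several of these values. CYP71B6 had 2930.2 there, where the other 13 arrays lay between 867.5 and 1598, which was 2.47 times their median. CYP71B26 had 669.8, where the others lay between 247.6 and 449.5, or 1.89 times their median. The dim gene CYP71B22 had 143.7, where the others lay between 2.1 and 25.8. The other 19 P450 genes were not at their highest on this array, 17 of them within the range of the others and 2 dim ones below it. The same array held 1438.9 signal units for LHCB4.1, of the light-harvesting complex, and 1241.6 for RCA, which encodes Rubisco activase. RCA was at most 785 on the other arrays. In the double mutant with nip6;1, LHCB4.1 was 1498.2 at 100 µM, higher than on the bor2 array, and 1287.2 at 0.3 µM. Those 2 arrays read 935.6 and 1343.5 for CYP71B6, and 410.3 and 313.3 for CYP71B26. The part of shoot tissue in the P450 signals of the bor2 array at 0.3 µM was not tested.

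Leaving out bor2, at both boron levels, moved several CYP71B26 and CYP71B6 values. The average response of CYP71B26 went from -0.15 to -0.30, and the bor2 effect, then read from the double mutant alone, from 0.37 to 0.17. For CYP71B6 the average response went from 0.31 to 0.16, the interaction from 0.06 to 0.52 and the bor2 effect from 0.32 to -0.078. The CYP71B6 intact response turned from 0.27 to -0.19, and its nip6;1 effect from 0.08 to -0.051. The wild type response was 0.27, with signals of 1236.6 at 0.3 µM and 1025.4 at 100 µM. In bor1 it was -0.64, with 1021.8 and 1598, and in bor2 it was 1.19, with 2930.2 and 1282.4. The 3 intact genotypes thus spanned a wider range than the channel mutants, whose CYP71B6 signals were 1294 ± 106 (SD, n = 4) at 0.3 µM and 1032 ± 154 at 100 µM.

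**Figure D4:**
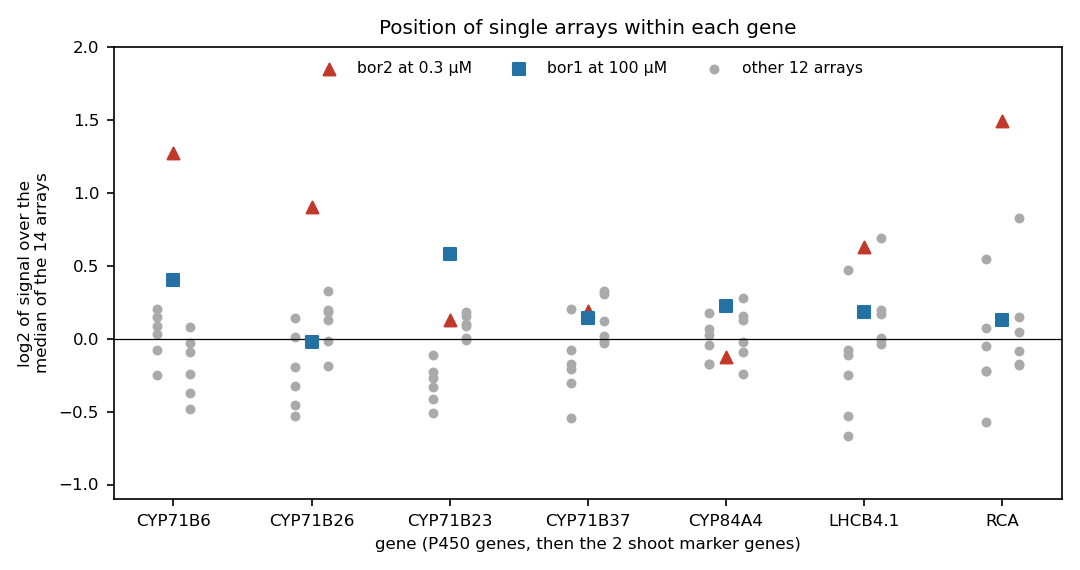
Signal of 5 tested P450 genes and of the shoot markers LHCB4.1 and RCA on each of the 14 arrays, as log2 of the signal over that gene's median (vertical axis). The red triangle is bor2 at 0.3 µM, the blue square bor1 at 100 µM and the grey points are the other 12 arrays. The triangle is the highest point for CYP71B6, CYP71B26 and RCA, and the square is the highest for CYP71B23.

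Among the 14 dim genes, CYP71B16, CYP71B36, CYP71B5, CYP71B31 and CYP79A2 were under the floor of 20 on all 14 arrays. CYP79A2, which turns phenylalanine into its aldoxime on the way to benzylglucosinolate, had signals of 0.6 to 8.6. CYP71B21, CYP71B24 and CYP71B25 were above the floor on a single array each, CYP71B22 on 2, CYP71B35 on 4 and CYP71B27 on 5. CYP71B38 was above it on 12 arrays. CYP51G2 and CYP78A9 were above it on all 14. Once the floor was applied, CYP71B16, CYP71B36, CYP71B5, CYP71B31 and CYP79A2 were constant, so no fit could call them. CYP71B21, CYP71B24 and CYP71B25 then varied through a single array each. With no filter on dim probe sets, none of the 14 was called in any of the 9 comparisons in limma. Between 0 and 2 of the 14 had an unadjusted p of at most 0.05 in each. In that fit, such an unadjusted p was reached by 2.64% to 7.28% of all 9098 dim probe sets, depending on the comparison.

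Few of the genes listed as partners or tissue markers had a named probe set. Of 105 entries in lists of redox partners, pathway genes and tissue markers, 9 did, and all 9 were tested. The P450 genes themselves matched 4 of 95 entries of lists by role, CYP71B6 and CYP79A2 for glucosinolate and indole defence, CYP78A9 for organ growth and CYP84A4 for phenylpropanoids. Of the genes listed as redox partners 1 of 9 had a named probe set, the diflavin reductase gene ATR3. Its average low boron difference was 0.27 ± 0.10 (log2, SE), with an adjusted p of 0.181 in limma. Whether ATR3 passes electrons to any of these P450s was not tested. Of the glucosinolate partners 3 of 19 had a named probe set. BCAT4, which starts the chain elongation of methionine for aliphatic glucosinolates, rose at low boron by 0.49 ± 0.12 (adjusted p = 0.0495), and it was higher in 5 of 7 genotypes. UGT74B1, a glucosyltransferase of glucosinolate synthesis, differed by 0.08 ± 0.10 (0.717), and the ER body glucosidase gene PYK10 by -0.01 ± 0.05 (0.960). The BCAT4 call was lost without wild type (0.0825), bor1 (0.105), bor2 (0.0645), the nip5;1 single mutant (0.130) or the double mutant with bor2 (0.132), and under 6 of the 7 other settings, with adjusted p-values from 0.0501 to 0.252. Of the triterpene partners 1 of 9 had a named probe set, AT5G47950 of the thalianol cluster, at 0.11 ± 0.13 (0.671). The root hair markers EXPA7 and EXPA18, 2 of 7 in their list, differed by 0.12 ± 0.08 (0.447) and 0.28 ± 0.09 (0.123).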

How the data were processed

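The deposited values are intensity values from ATH1 arrays, 1 per genotype and boron level, made with MAS5 per the submitters' processing notes. No MAS5 version or setting is given in the sources used here. The 64 control probe sets were left out. Each array was scaled to a common trimmed mean (2% cut at each end), which changed signals little, signals under 20 (the 20th percentile) were raised to 20, and log2 was taken. Probe sets with a mean of at least 113 (upper 60%, 13648) were tested with limma 3.58.1 in R 4.3.3 (intensity trend, statmod 1.5.0) and Benjamini-Hochberg adjustment over all of them. Boron responses had genotype as a fixed block, class differences as a random block (consensus correlation 0.105), and the bor1, bor2 and nip6;1 terms had no block. The scripts were tested on simulated data.

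Genes were named by the platform annotation. Updated through RefSeq (TAIR10.1), the rule gave the same 22. Values were given for called genes, for the 6 largest differences each way (3 for the added mutations), the 10 brightest, and those nearest the bound. The members and lists were chosen with earlier results of these data known. Alternatives were quantile normalization, no filter or the upper 40%, no trend, a robust prior, an offset of 16, the GAPDH ratio, 1 boron level alone, and each genotype left out. Precision is limited by the number of arrays.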

Additional observations from a re-analysis of the deposited data

Results flagged for a closer look

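Each P450 gene was checked for a single array far from the rest of its boron level, or from the other channel mutants at that level. The measure was the gap to the nearest array over the group's range. The intact class alone was not checked, and groups with at most 1 array above the floor were left out. Of 49 groups checked 7 were marked, and 5 of 32 for the tested genes. For a single group of normally distributed values chance gives about 1 in 20. The check used signals that were not logged and were raised to the floor, so that rate need not hold here. The groups shared arrays, and most marks fell on the bor2 array at 0.3 µM or the bor1 array at 100 µM, so no excess across genes is read from the count.

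On the bor2 array at 0.3 µM, CYP71B6 read 2930.2 signal units, with 1396 the next of the 7 arrays. CYP71B26 read 669.8 there, with 395.3 the next. The dim gene CYP71B22 read 143.7, with 25.8 the next, and the dim gene CYP78A9 read 64, with 44.9 the next. On the bor1 array at 100 µM, CYP71B23 read 1025.1, with 779 the next of 7, and CYP71B29 read 213.8, with 162.4 the next. Among the 4 channel mutants at 0.3 µM, CYP71B34 read 254.1 in the double mutant with bor2, with 181.8 the next.

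The low boron response of CYP71B26 was upward in all 3 intact genotypes and downward in all 4 channel mutants. Its intact responses were 0.16 in wild type, 0.04 in bor1 and 0.72 in bor2. Of all tested probe sets, 13.1% were upward in all 3 intact genotypes and 13% downward in all 4 channel mutants. The share with both was not counted. The difference between the classes was -0.80 on the log2 scale, and its test in limma gave an adjusted p of 0.206.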

How the results depend on the processing

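The count of P450 genes called for the average response was 1, and it was 0 with no filter (CYP71B23 adjusted p = 0.141), with no intensity trend (0.0504) and with a GAPDH ratio term (0.286). Leaving out 1 genotype at a time gave counts from 0 to 1. For the channel mutants' response the count was 1, and it was 0 with no filter (CYP71B26 adjusted p = 0.178), with the upper 40% of probe sets (0.0582), with no intensity trend (0.0596) and with the GAPDH ratio (0.0690). Leaving out genotypes gave counts from 0 to 3. The counts of the other 7 comparisons were 0 under every alternative run, and the count of members was 22 with updated symbols. Over all probe sets the average response gave 514 calls, against 13 with no filter, 26 with the GAPDH ratio and 333 with the upper 40%. The channel mutants' response gave 706, against 182, 228 and 422.

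The alternatives followed 67 values of single genes, the largest differences each way in each comparison and the partner genes in the average response. Some quoted values nearer zero were not among them, such as CYP71B28 in the average response. Of the 67, 22 changed sign under some alternative, 21 of them when a genotype was left out, with limma adjusted p-values of 0.662 or more. CYP71B29 was 0.0096 in the average response with the GAPDH ratio, and CYP84A4 was 0.00055 in the intact response with quantile normalization. With genotypes left out, the lowest and highest intact responses were -0.067 and 0.067 for CYP84A4, -0.066 and 0.20 for CYP71B37, -0.48 and 0.0041 for CYP71B29, and -0.19 and 0.73 for CYP71B6. The interaction ran from -0.38 to 0.047 for CYP71B23, from -0.053 to 0.43 for CYP71B29 and from -0.40 to 0.52 for CYP71B6. Class differences ran from -0.56 to 0.20 for CYP71B6 at 0.3 µM, and at 100 µM from -0.12 to 0.11 for CYP84A4, from -0.10 to 0.17 for CYP71B34 and from -0.0048 to 0.17 for CYP71B26. The bor1 effect ran from -0.053 to 0.17 for CYP71B23, from -0.12 to 0.35 for CYP71B26, from -0.37 to 0.083 for CYP71B29 and from -0.22 to 0.35 for CYP71B6. The bor2 effect ran from -0.11 to 0.12 for CYP71B23 and from -0.078 to 0.73 for CYP71B6, and the nip6;1 effect from -0.20 to 0.027 for CYP71B23 and from -0.11 to 0.47 for CYP71B6. The average response ran from -0.039 to 0.016 for PYK10 and from -0.0046 to 0.17 for UGT74B1. The causes were not tested.

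No paired analysis by replicate number was possible because every sample carries the same number. The nip6;1 effect could not be fitted without its 1 carrier. For the 14 dim genes signal over background limits what can be seen.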

Other observations

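The brighter dim genes were tested only in the fit with no filter, and their values are given here. CYP78A9, known for its part in fruit and seed growth, read 34.6, 37.9 and 64 signal units at 0.3 µM in wild type, bor1 and bor2, and 67.1, 122.4 and 95.7 at 100 µM. Those 3 intact arrays at low boron all lay below the 3 at 100 µM, as they did for 2.39% of all dim probe sets and 6.24% of the tested ones. In the channel mutants the CYP78A9 signal was 31.4 to 44.9 at 0.3 µM and 22.6 to 70.7 at 100 µM, so those groups overlapped. It was lower at 0.3 µM in 6 of 7 genotypes, and with no filter its average difference was -0.71 ± 0.23 (log2, SE; adjusted p = 0.232 in limma).

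CYP51G2, annotated as a transcribed pseudogene and a relative of the sterol demethylase gene CYP51G1, ran the other way in the intact class. Its signals were 106.2, 99.7 and 103.3 at 0.3 µM in wild type, bor1 and bor2, and 58.5, 68 and 72.2 at 100 µM, so all 3 arrays at low boron lay above the other 3, as they did for 2.64% of all dim probe sets and 4.88% of the tested ones. These patterns of CYP78A9 and CYP51G2 were picked out after their values were seen. In the channel mutants they were 52.1 to 88.5 at 0.3 µM and 45.2 to 100.2 at 100 µM. With no filter the intact response was 0.64 ± 0.18 (adjusted p = 0.582) and the difference between the classes' responses was -0.68 ± 0.23 (adjusted p = 0.698).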
